A study of Mus musculus with 3 samples.

Results

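The microRNA (miRNA) miR-378a is a short noncoding RNA cut from a hairpin in the gene Ppargc1b. The hairpin gives a pair of mature products, the 3p arm (MIMAT0003151) and the 5p arm (MIMAT0000742), and these were followed in the mouse heart after birth. The rows of both arms were taken by accession from a table of small RNA read counts, so that 2 of its 2049 rows are described here. Hearts were from wild-type mice of the C57BL/6 strain at 1 (P1), 7 (P7) and 28 (P28) days after birth, and each age had 1 library, and the labels name no treatment or transgene for any of them. The labels name heart, while the study describes sequencing of the ventricles at these ages. How many hearts went into a library is not given in the sources used here. With 1 library per age no difference below has a replicate check, and every interval is a 95% exact interval that covers counting error only.

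A miRNA hairpin is released from its host transcript, trimmed to a short duplex, and 1 of its strands is loaded into Argonaute, the protein that carries it to messenger RNAs. The other strand is mostly degraded, so that the arms of a hairpin can differ widely in level although they are made in equal numbers. The host gene Ppargc1b encodes PGC-1β, a coactivator of genes for mitochondrial respiration and fatty acid oxidation. miR-378a is known from tissues rich in mitochondria, such as heart, skeletal muscle and brown fat, where it has been linked with lipid metabolism, and in cardiomyocytes (CMs) with growth factor signalling. The weeks sampled here are those in which CMs leave the cell cycle and the heart turns from glucose towards fatty acids as fuel.

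In the mm10 assembly, GENCODE M21 places the hairpin gene Mir378a at chr18:61397835-61397900 on the minus strand, over 66 bp. It lies inside the first intron of Ppargc1b (chr18:61298136-61400431, also minus strand) in each of the 3 annotated transcripts that span it, with 2389 bp between the start of that intron and the hairpin. No exon of these transcripts covers it. On the opposite strand another annotated miRNA gene, Gm25301 (chr18:61397813-61397925), covers the whole hairpin. Whether strand was used in counting is not given in the sources used here, so reads from the 2 genes cannot be told apart by the table. The hairpins Mir378b, Mir378c and Mir378d, on chromosomes 11, 14 and 10, carry related mature miRNAs by the naming of the registry. How reads that fit several of these places were assigned is not given either. No other row had counts within 15% of those of either arm in all 3 libraries. That check finds only rows that nearly duplicate an arm, and it cannot show reads shared in part.

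The P1 library held 1944237 counts, the P7 library 2465680 and the P28 library 2842526. Levels are given as CPM, that is, the reads of a row divided by the total of its library and scaled so that a library sums to 1000000. Some rows repeat the counts of another row, so a library total can hold the same reads more than once. Rows averaging 10 CPM or more over the 3 libraries, 317 in number, are used as the background. At these depths 3 reads are worth between 1.06 and 1.54 CPM, well below the level of both arms. The table pairs its other accessions with no names, so the identity of the tissue was not checked here against marker miRNAs. In whole tissue, a change in the number of cells that make a miRNA and a change in its amount per cell cannot be told apart.

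miR-378a-3p, the arm that made up nearly all reads of the hairpin, was one of the most abundant miRNAs of the heart at every age. The P1 library held it at 23863 CPM (46395 reads, 95% interval 23649 to 24078). Its level was 45990 CPM in the P7 library (113397 reads, 45729 to 46252) and 26878 CPM in the P28 library (76401 reads, 26690 to 27067). The P7 library thus held the highest level, and the intervals of the 3 libraries did not overlap. As a share of the total count of the library, repeated rows included, the 3p arm took 4.60% at P7, against 2.39% at P1 and 2.69% at P28. With repeats reduced to 1 row per mature accession, its log2 ratio at P7 against P1 was 0.89, in place of 0.95. Among all rows it stood in place 3 at P7, up from place 7 at P1, and in place 6 at P28. These places count rows, and not separate miRNAs. A pair of very abundant rows had the same mean, 72827 CPM, and the same log2 ratios, -0.75 for P7 against P1 and 1.06 for P28 against P7. A change of place can therefore count the same reads more than once.

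miR-378a-5p, the minor arm, was far below its partner and followed another course. Its level was 86.9 CPM in the P1 library (169 reads, 74.3 to 101), 165 CPM in the P7 library (407 reads, 149 to 182) and 177 CPM in the P28 library (503 reads, 162 to 193). The P1 library was the lowest, and its interval did not overlap those of the other ages. The intervals at P7 and P28 overlapped, so by library totals the order of these 2 was not resolved at this depth. In the ranking of all rows the 5p arm moved from place 182 in the P1 library to place 147 and then, at P28, to place 121.

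**Figure D1:**
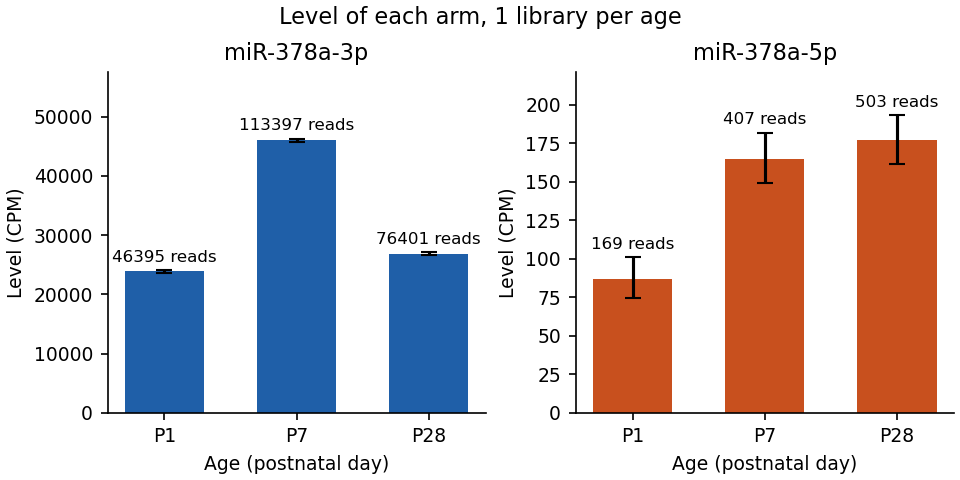
Level in CPM of miR-378a-3p (left) and miR-378a-5p (right) in the P1, P7 and P28 libraries, with 95% Clopper-Pearson intervals for counting error and the reads above each bar. The 3p arm is highest at P7 (45990 CPM) and lower at P28 (26878 CPM), while the 5p arm has 165 and 177 CPM at these ages. The panels have different scales.

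Between P1 and P7, the first week after birth, both arms were higher by nearly the same factor. The 3p arm was 1.93-fold higher at P7, with a log2 ratio of 0.95 (95% interval 0.93 to 0.96). The 5p arm was 1.90-fold higher, with a log2 ratio of 0.92 (0.66 to 1.19). Neither arm reached the 2-fold difference used as a threshold, which 10.4% of the 317 rows passed upwards and 11.7% downwards. The 3p arm had a higher ratio than 281 of the other rows and the 5p arm than 278, beside a median log2 ratio of 0.02. Ratios were taken with a pseudocount of 0.5 reads.

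Between P7 and P28 the arms parted. The 3p arm was 1.71-fold lower at P28, with a log2 ratio of -0.77 (-0.79 to -0.76). The log2 ratio of the 5p arm was 0.10 (-0.09 to 0.29), an interval that includes no difference by library totals but not under the other scalings, where the ratio was 0.44 to 0.75. In the background 3.15% of the rows were at least 2-fold higher and 39.1% at least 2-fold lower, and neither arm was among them. The median row had a log2 ratio of -0.64, so the ratio of the 3p arm lay close to the middle of the table, above 148 of the other rows. The ratio of the 5p arm was above 249 of them. The log2 ratio of the 5p arm exceeded that of the 3p arm by 0.87 (0.68 to 1.07) here, by 0.85 (0.60 to 1.11) at P28 against P1, and by -0.02 (-0.28 to 0.25) at P7 against P1.

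Over the whole period from P1 to P28, the level of the 3p arm was 1.13-fold higher, with a log2 ratio of 0.17 (0.15 to 0.19). The 5p arm was 2.03-fold higher, with a log2 ratio of 1.02 (0.77 to 1.29). It was therefore the 1 arm of the 2 called higher in this comparison, against 12.3% of all rows higher and 40.7% lower. Its interval reached from 1.71-fold to 2.44-fold, on both sides of the threshold. With a pseudocount of 5 reads its log2 ratio was 0.998 and the call was lost.

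**Figure D2:**
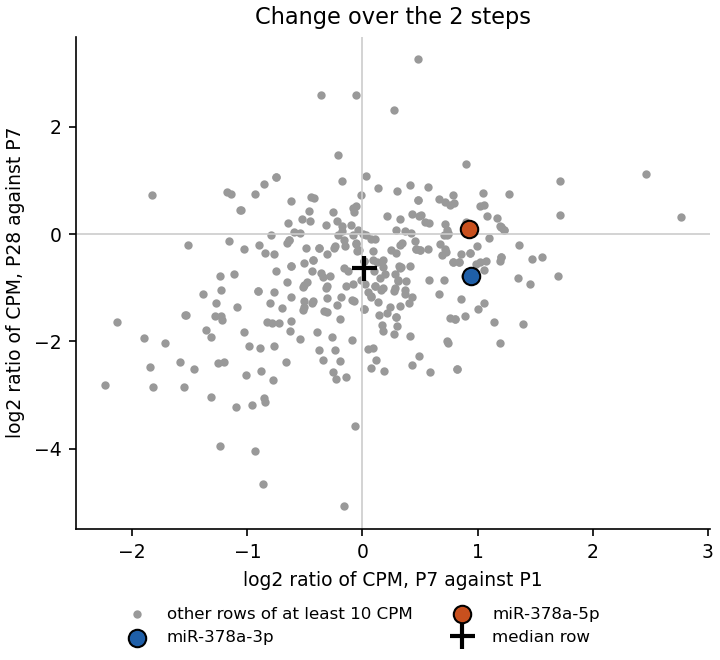
Each of the 317 rows is placed by its log2 ratio of CPM at P7 against P1 (horizontal) and of P28 against P7 (vertical). Both arms of miR-378a lie to the right, at 0.95 and 0.92, but on the vertical axis the 3p arm is at -0.77 and the 5p arm at 0.10, with the median row (cross) at -0.64. The axes share the P7 library.

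The ratio of one arm to the other comes from a single library, so no scaling between libraries can move it. At P1 there were 275 reads of the 3p arm for each read of the 5p arm (95% interval 236 to 321), and at P7 there were 279 (253 to 308). At P28 there were 152 (139 to 166). The balance at P28 thus lay outside the intervals of both younger ages, which overlapped each other almost entirely. The arm balance of other hairpins was not analysed, so whether such a shift was usual in the P28 library was not tested.

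Expressed as a share of the reads of both arms, the 5p arm took 0.654% in the P28 library (0.598 to 0.714), against 0.363% in the P1 library (0.310 to 0.422) and 0.358% in the P7 library (0.324 to 0.394). The odds of a read being from the 5p arm were 1.83 times as high at P28 as at P7 (exact conditional 95% interval 1.61 to 2.10) and 1.81 times as high as at P1 (1.51 to 2.17). Between P7 and P1 the odds ratio was 0.99 (0.82 to 1.19), an interval that includes no difference. In reads, the arm balance of P7 would give 274 reads of the 5p arm in the P28 library, where 503 were counted.

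**Figure D3:**
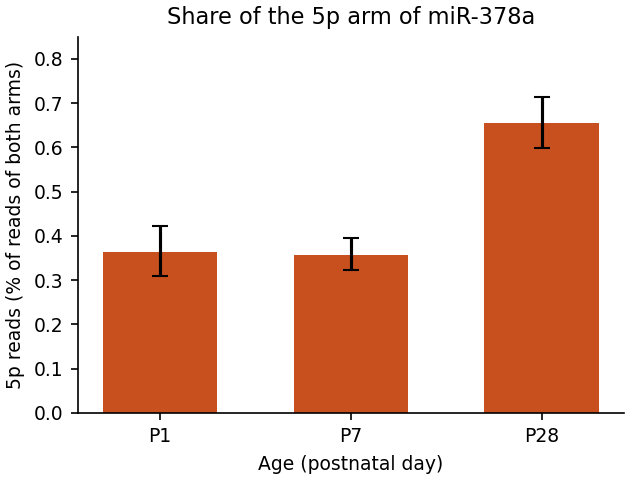
Reads of miR-378a-5p as a percentage of the reads of both arms in the P1, P7 and P28 libraries, with 95% Clopper-Pearson intervals for counting error. The share is 0.654% at P28, against 0.363% and 0.358% at the younger ages, and at P28 the interval lies above those of both other libraries.

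The course of the single arms, unlike their balance, depended on how the libraries were scaled. The median CPM of the 317 rows was 125 and 124 at the younger ages but 71.1 at P28. An unchanged level in CPM at P28 is therefore a higher level relative to the median row. Measured that way, the 3p arm stood at 191 times the median row in the P1 library, 372 times in the P7 library and 378.2 times in the P28 library. The 5p arm stood, in the same order of ages, at 0.695, 1.33 and 2.49 times the median row. On this scale the 3p arm was no longer highest at P7 but slightly higher at P28, and the 5p arm was higher at each later age.

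TMM factors and DESeq2 size factors, which set the typical row near no change, moved the median log2 ratio of P28 against P7 by 0.56 and 0.65. The log2 ratio of the 3p arm at P28 against P7 was then -0.22 and -0.13, in place of -0.77. Its highest level stayed at P7 under these scalings and under library totals without the 10 most abundant rows, but the margin over P28 went from 1.71-fold to between 1.09-fold and 1.35-fold. For the 5p arm, the log2 ratio at P28 against P7 was 0.66 with TMM factors, 0.75 with size factors and 0.44 without the 10 rows, in place of 0.10. At P28 against P1, the 3p arm had log2 ratios from 0.17 to 0.80 over the 4 scalings, all below 2-fold. The 5p arm had ratios from 1.02 to 1.65 there, all past 2-fold. At P7 against P1 the ratios moved little, from 0.93 to 1.09 for the 3p arm and from 0.90 to 1.07 for the 5p arm, though this range crosses the threshold. The background moved as well. At P28 against P7, 10 rows were higher and 124 lower by library totals, 40 and 72 with TMM factors, 46 and 63 with size factors, and 27 and 92 without the 10 rows. At P28 against P1, 39 were higher and 129 lower by library totals, 76 and 83 with either set of factors, and 65 and 90 without the 10 rows.

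**Figure D4:**
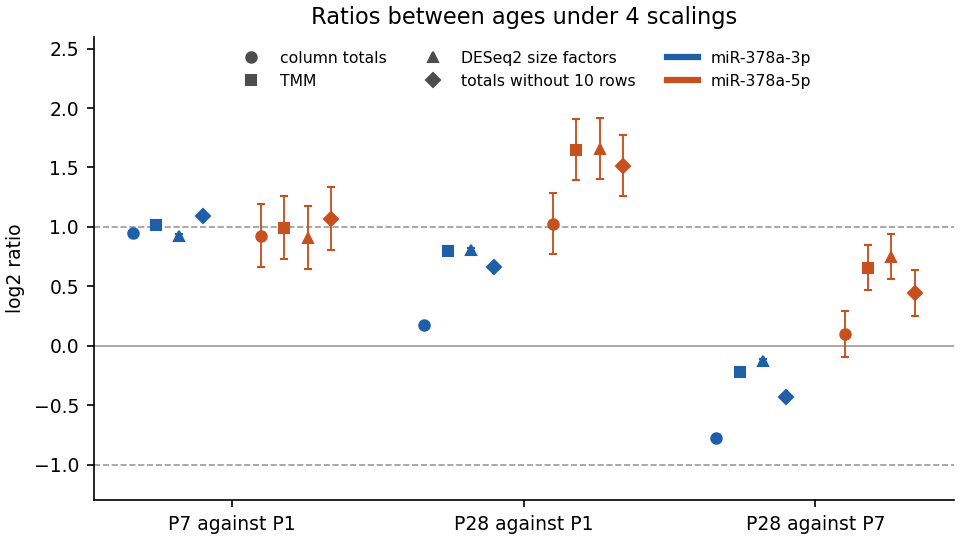
Log2 ratios of miR-378a-3p and miR-378a-5p in the 3 comparisons of ages under library totals (circles), TMM factors (squares), DESeq2 size factors (triangles) and totals without the 10 most abundant rows (diamonds), with the 95% counting interval. Dashed lines mark 2-fold. The 3p arm at P28 against P7 moves from -0.77 to as little as -0.13, while the distance between the arms within a comparison stays the same.

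Rows of similar abundance served as a further comparison, with the ranges chosen after the values were seen. Of the 16 other rows with a mean level within 4-fold of that of the 3p arm, 13 had a lower log2 ratio from P1 to P7 and 15 had a higher one from P7 to P28. Their median log2 ratios were -0.32 and -0.24, where the 3p arm had 0.95 and -0.77. Several of these 16 rows come in pairs that nearly repeat each other. Such pairs had mean levels of 13030 and 13029, 12672 and 12663, 11758 and 11754, or 21876 and 21878 CPM, and another pair had 72827 CPM in both. These counts and medians therefore weigh some reads more than once, and they were not recomputed for separate miRNAs. Among 74 rows within 2-fold of the mean level of the 5p arm, 64 had a lower ratio than it from P1 to P7 and 60 from P7 to P28. Their medians were -0.16 and -0.96, beside 0.92 and 0.10 for the 5p arm. Some of these rows share reads with each other, so they are not independent. Across the table, 115 of the 317 rows had their highest CPM at P7, and 15 of them exceeded both other ages by a larger factor than the 3p arm did. With TMM factors these numbers were 74 and 46.

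The rows whose course was most like that of each arm were found by the distance between their pairs of log2 ratios, P7 against P1 and P28 against P7, among the 166 other rows averaging 100 CPM or more. The nearest to the 3p arm was the second row of MIMAT0000219, at a distance of 0.28, together with a row of another accession that had identical counts. Its CPM was highest at P7, at 2185, with 1223 at P1 and 1527 at P28 between them. The 5 nearest rows lay at distances of 0.28 to 0.37 and belonged to 3 accessions. The nearest to the 5p arm was MIMAT0000157, at a distance of 0.19, with a CPM of 270.0 at P1, then 453 and, at P28, 458. By library totals it was, like the 5p arm, lowest at P1 and nearly level between P7 and P28. The likeness rests on 3 libraries and is a description.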

How the data were processed

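Total RNA from mouse hearts (ventricles in the study's account) was made into small RNA libraries with a NEBNext kit per the labels. The submitters' processing notes name bcl2fastq, TopHat and mm10. The authors deposited raw read counts per miRBase accession, without normalization, in 2049 rows (2035 mature and 14 stem-loop). The study's methods give counting with Bioconductor packages for its sequencing in general. Here CPM, log2 ratios (pseudocount 0.5 reads) and Clopper-Pearson intervals at 95% were computed with Python 3.11.15, numpy 2.4.6, pandas 2.3.3 and scipy 1.17.1. With 1 library per age there are no residual degrees of freedom, so no test was run and no p-value is given. A row was called when its CPM differed at least 2-fold, among rows with a mean of at least 10 CPM. Intervals treat reads as independent, though no molecular identifiers are stated. Calls and intervals were tested on simulated counts with counting error only, which cannot show how they behave with differences between hearts or library preparations. Scaling alternatives used edgeR 4.0.16 and DESeq2 1.42.0 in R 4.3.3. Coordinates are from GENCODE M21. The arms, comparisons and alternatives were chosen with earlier results of these data known. The rule for naming took both arms and the rows of nearest course, of which 2 are named. Lists of muscle, metabolic, brown fat, blood, endothelial, smooth muscle and fibroblast miRNAs were planned by name and are not analysed here, since no table used here pairs accessions with names. For the same reason the rows of miR-378b, miR-378c and miR-378d and the planned arm ratios of other hairpins are not analysed here.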

Additional observations from a re-analysis of the deposited data

How the results depend on the processing

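The balance of the arms kept its value in each library within its counting interval with a pseudocount of 5 reads. With 169, 407 and 503 reads of the 5p arm, this setting could move the balance only a little, so it is a weak check. The assignment of reads that fit several places was not varied. Scaling moved the single arms, as given here in the order P7/P1, P28/P1 and P28/P7 on the log2 scale. For miR-378a-3p, the ratios were 1.01, 0.80 and -0.22 with TMM factors and 0.93, 0.80 and -0.13 with DESeq2 size factors, and totals without the 10 most abundant rows gave 1.09, 0.66 and -0.43. For miR-378a-5p at the last 2 comparisons, these settings gave 1.65 and 0.66, then 1.65 and 0.75, then 1.51 and 0.44. With 1 row per mature accession, the 3p arm had 0.89 for P7/P1 and -0.72 for P28/P7. The only reported ratio past 2-fold, that of the 5p arm at P28 against P1, kept its sign. Of the 30 recomputed ratios, 13 stayed within the counting interval of the reported value and 17 moved outside it. At P7 against P1 the 3p arm passed 2-fold with TMM factors and, like the 5p arm, without the 10 rows. When a call needed the whole interval past 2-fold, a setting chosen after seeing the data, neither arm was called. Rows higher and lower were then 13 and 21 for P7/P1, in place of 33 and 37, 25 and 98 for P28/P1, in place of 39 and 129, and 6 and 91 for P28/P7, in place of 10 and 124. Other minimum levels changed the number of rows considered as well. Of 526 rows with a minimum of 1 CPM, those higher and lower in the same order were 70 and 76, 79 and 226, 42 and 213. Of 167 rows with a minimum of 100 CPM, they were 18 and 18, 19 and 55, 3 and 50. Of 945 rows with no minimum, they were 225 and 206, 183 and 390, 128 and 390. At a threshold of 1.5-fold, again among the 317 rows, they were 75 and 77 for P7/P1, 59 and 161 for P28/P1, and 32 and 166 for P28/P7. At 4-fold they were 2 and 2 for P7/P1, 10 and 65 for P28/P1, and 4 and 45 for P28/P7. Neither pairing nor leaving out a replicate was possible with 1 library per age.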
